A study of Mus musculus with 4 samples.

Results

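Apolipoproteins are the protein coats of lipoprotein particles, and lipoprotein lipase (Lpl) is the enzyme that frees fatty acids from the triglyceride those particles carry. This set holds 10 genes, chosen by name from the probe annotation: the apolipoprotein genes Apoe, Apoc1, Apoc2, Apoc3, Apoa1, Apoa2, Apob, Apod and Apom, and Lpl. They are read by 17 probe sets of the 34945 that carry a single gene symbol. The genes named by those probe sets number 18193 in all, of which 11715 passed a filter on low values. Of the 10 genes, Lpl, Apod and Apoa2 passed it and 7 did not.

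RNA from mouse aorta was hybridised to 4 arrays, 1 per group. The groups were Ath29 congenic mice on Western diet, Ath29 congenic mice on chow, C57BL/6 apoE-/- mice (B6) on Western diet and B6 mice on chow. Ath29 is an atherosclerosis locus of chromosome 9, and a congenic strain carries a donor segment there on the background of another strain. All 4 samples are labelled as C57BL/6 strain, Ath29 mice as resistant to atherosclerosis and B6 mice as having it. The labels give the apoE-/- genotype for B6 mice only, and whether Ath29 mice share it is not stated in the sources used here. Weaning was at 3 weeks; the fat- and cholesterol-rich Western diet began at 4 weeks of age and lasted 2 weeks. The labels do not say whether 1 array holds RNA of 1 mouse or of several. With 1 array per group, no difference between 2 arrays has a replicate check or a test of its own.

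Most plasma apolipoproteins are made by liver and intestine, whereas Apoe is also made by macrophages and Apod by many tissues outside the liver. Apoc2 is the activator that Lpl needs, Apoc3 and Apoc1 restrain clearance of triglyceride-rich particles, and Apoe is the ligand by which their remnants are taken up. Lpl is made in fat, heart and muscle cells and by macrophages, and it acts at the surface of capillary endothelium, where Gpihbp1 holds it.

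The arrays were close in overall brightness, with median intensities of 27.95 to 28.8 before scaling, and the brightest probe set of each array lay between 12857 and 13421. Smooth muscle markers marked the tissue as vessel wall, with Acta2, a contractile actin, between 10395 and 11269 intensity units. The extraction notes name liver, but albumin (Alb) lay between 33.7 and 64.0 units, and 9 of the 16 hepatocyte genes with a probe set were below the filter. Cyp2e1, a cytochrome known from liver and from fat, did give signal, at 2866, 4560, 4852 and 2541 units in Ath29 Western, Ath29 chow, B6 Western and B6 chow. Fat was present on every array: the summed level of the 9 white fat genes above the filter was 20800 in Ath29 Western, 22775 in Ath29 chow, 24130 in B6 Western and 19690 in B6 chow, and none was at the floor. The B6 Western array stood apart by its heart muscle signal. The summed level of 9 of the 10 heart muscle genes was 8730 in B6 Western, against 485 in Ath29 Western, 644 in Ath29 chow and 799 in B6 chow. The 3' to 5' ratio of the actin control ran from 24.4 to 31.5 and was higher on both Ath29 arrays, while that of Gapdh ran from 22.8 to 31.3 and was lower on both. On every array the 3' signal of these controls was thus many times the 5' signal. Whether this bias lowered readings, or set apart probe sets of the same gene, was not tested.

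Levels below are intensities after each array was scaled to a common median. A probe set counts as above the filter where its mean log2 level exceeds that of the median probe set, 27.5 units, and single values below 27.5 were not told apart from background. Values below a floor of 9.60 units have no order. Differences are on the log2 scale, and at least 2-fold is the line used for counting.

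**Figure D1:**
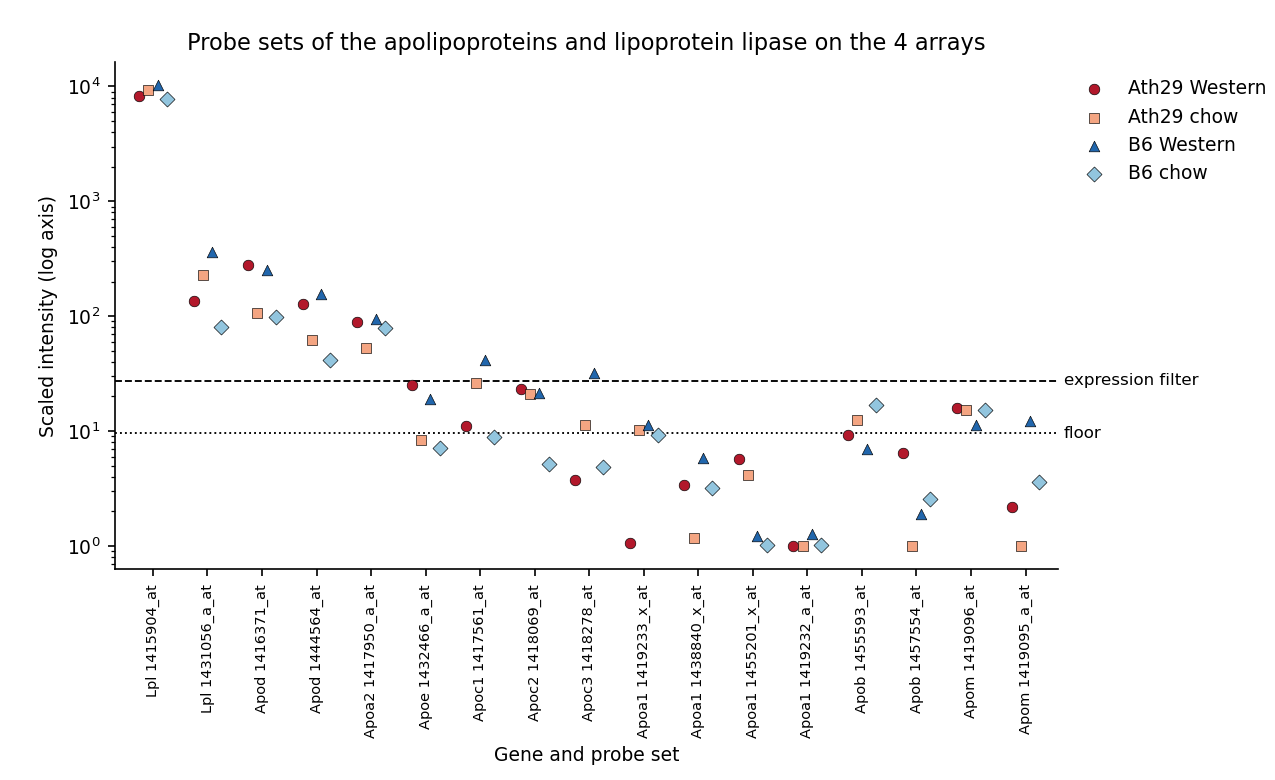
Scaled intensity (log axis) of each of the 17 probe sets on the 4 arrays, 1 point per array, with the expression filter (27.5) and the floor (9.60) as lines. The probe sets of Lpl, Apod and Apoa2 lie above the filter on every array, and those of the other 7 genes lie below it but for single B6 Western values of Apoc1 and Apoc3.

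Apoe is the gene knocked out in the controls, and it was read by 1 probe set. It gave 25.1 units in Ath29 Western, 8.43 in Ath29 chow, 19.0 in B6 Western and 7.17 in B6 chow. No array exceeded the filter, and both chow values lay under the floor, so neither strain showed Apoe signal that stands clear of background. Whether these probes fall in the deleted part of the gene is not known here, and the reading does not check the genotype of either strain.

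Apod gave the same picture by both of its probe sets: more signal on Western diet than on chow in each strain. Apod is a lipocalin, a small carrier of hydrophobic molecules such as arachidonic acid and progesterone, a protein family that also holds Apom. The brighter probe set read 277 units in Ath29 Western, 106 in Ath29 chow, 252 in B6 Western and 98.2 in B6 chow. The second probe set read 128, 61.7, 156 and 41.4 units on the same arrays in that order. By both probe sets, each Western array was above each chow array.

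On the brighter probe set the Western minus chow difference of Apod was 1.39 in Ath29 mice and 1.36 in B6 mice, or 2.62-fold and 2.57-fold. The second probe set gave 1.05 in Ath29 mice and 1.91 in B6 mice. In Ath29 mice 1.32% of the 11715 genes were at least 2-fold higher on Western diet, and Apod was the 46th highest of them. In B6 mice 4.11% of genes were at least 2-fold higher on Western diet, and Apod was the 242nd highest. It was among the 28 genes, or 0.239%, that were at least 2-fold higher in both strains. Between strains, Ath29 minus B6 for Apod was 0.13 on Western diet and 0.11 on chow, with -0.28 and 0.58 by the second probe set. None of Lpl, Apod and Apoa2 was at least 2-fold different between strains by the probe set used for the gene, where 2.88% of genes were on Western diet and 4.11% on chow.

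An additive model of strain and diet over all 4 arrays is the only fit that gives Apod a p-value. Its error combines the disagreement of the strain effect between diets with the variance that limma borrows from all genes. In it the diet effect of Apod was 1.38 ± 0.24 (SE, 4 arrays), with an unadjusted p of 0.0012, the 13th lowest of all genes. The adjusted p was 0.968 (limma, Benjamini-Hochberg over 11715 genes), so the call fails the correction. The diet differences of Apod in the 2 strains were only 0.03 apart, so most of this SE is borrowed variance. With no filter on low values it was 0.05, with an adjusted p of 0.976 (limma). With the filter, the additive fit (limma) called 0 genes for diet and 0 for strain at an adjusted p under 0.05. At an unadjusted p under 0.05 it had 294 and 304 genes. Of all genes, 1.66% were higher on Western diet at an unadjusted p under 0.05.

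Summed macrophage signal was also higher on both Western arrays than on both chow arrays. Of 10 listed macrophage genes 8 passed the filter, and their summed level was 7739 in Ath29 Western, 4756 in Ath29 chow, 8154 in B6 Western and 4122 in B6 chow. Ctss alone gave 3293, 1390, 3454 and 1280 units of these sums, in that order. All 8 genes were above 0 in the Western minus chow difference of each strain. Their medians were 0.56 in Ath29 and 0.81 in B6 mice, against 0.04 and -0.06 over all genes. Adgre1 was at only 0.0016 in Ath29 mice, and read less in B6 Western (78.1 units) than in Ath29 chow (86.1). The share of all genes above 0 was not counted. The part of macrophage signal in the Apod difference was not tested. In bulk tissue, a change in the share of a cell type and a change of RNA per cell cannot be told apart. Genes of fibroblasts, which are known to make Apod, had median diet differences of 0.05 in Ath29 and -0.30 in B6 mice. Genes listed for nerve and Schwann cells, with 5 of 8 above the filter, had medians of -0.21 and 0.54 but differed in sign. In Ath29 mice 2 were above 0 and 3 below, and in B6 mice 4 above and 1 below. Mpzl2, the brightest, was at -0.97 and 1.58, Mbp at -0.49 and 0.54, and Cnp at 0.18 and -0.20. Whether Mpzl2 marks Schwann cells in this tissue was not tested.

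The gene closest to Apod in its pattern over the 4 arrays was Ctss, the lysosomal protease cathepsin S and itself on the macrophage list, with a root mean square distance of 0.074 between centred log2 levels. Ctss read 3293 units in Ath29 Western, 1390 in Ath29 chow, 3454 in B6 Western and 1280 in B6 chow. Next were Cenpv at 0.109, with chow values of 24.8 and 21.2 units that are in the range of background, and Ly86, a partner of a Toll-like receptor homologue on myeloid and B cells, at 0.189. Ctss was the only gene within 0.1 of Apod. These distances use the brighter Apod probe set, and the second was not compared in this way.

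Lpl signal was strong on all 4 arrays, and the size of its differences depended on the probe set. The brighter probe set read 8206 units in Ath29 Western, 9299 in Ath29 chow, 10204.5 in B6 Western and 7789 in B6 chow. The second read 135 units in Ath29 Western, 229 in Ath29 chow, 359 in B6 Western and 81.1 in B6 chow. The second is of a class, named _a_at by the maker, whose probes match more than 1 transcript, usually of the same gene. Both put the arrays in the same order, B6 Western highest, then Ath29 chow, Ath29 Western and B6 chow.

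By the brighter probe set no Lpl difference reached 2-fold: Western minus chow was -0.18 in Ath29 mice and 0.39 in B6 mice, and Ath29 minus B6 was -0.31 on Western diet and 0.26 on chow. By the second probe set the same differences were -0.76 and 2.15 for diet, and -1.42 and 1.49 for strain. That is 4.43-fold more signal on Western diet than on chow in B6 mice, against 1.70-fold less in Ath29 mice. In the additive fit, Lpl had a diet effect of 0.10 ± 0.26 and a strain effect of -0.03 ± 0.26 (SE, 4 arrays), with an adjusted p of 0.9999 or more for both (limma). Its opposite differences go into the error of that fit.

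The brighter Lpl probe set lay near the upper end of the intensity scale, where differences were small for other genes as well. Of the 200 genes with a mean level of at least 5000 units, 0 were 2-fold different in any of the 4 comparisons, against 4.07% of the genes between 200 and 5000 units for diet in B6 mice, 0.65% for diet in Ath29 mice, 1.51% for strain on Western diet and 2.41% for strain on chow. Where that share is below 1%, a count of 0 in 200 genes shows little. Those bright genes had 340 other probe sets above the filter, and 84.4% of them spanned a wider log2 range over the 4 arrays than the brightest probe set of the same gene. The median span was 0.45 in the other probe sets and 0.19 in the brightest, against 2.15 and 0.39 for Lpl. This check was chosen after the values were seen, and the reason for the wider spans was not tested. It set the probe set picked for its level against dimmer ones and was not run on genes of lower level. It therefore cannot tell whether wider spans are particular to the upper end of the scale.

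**Figure D2:**
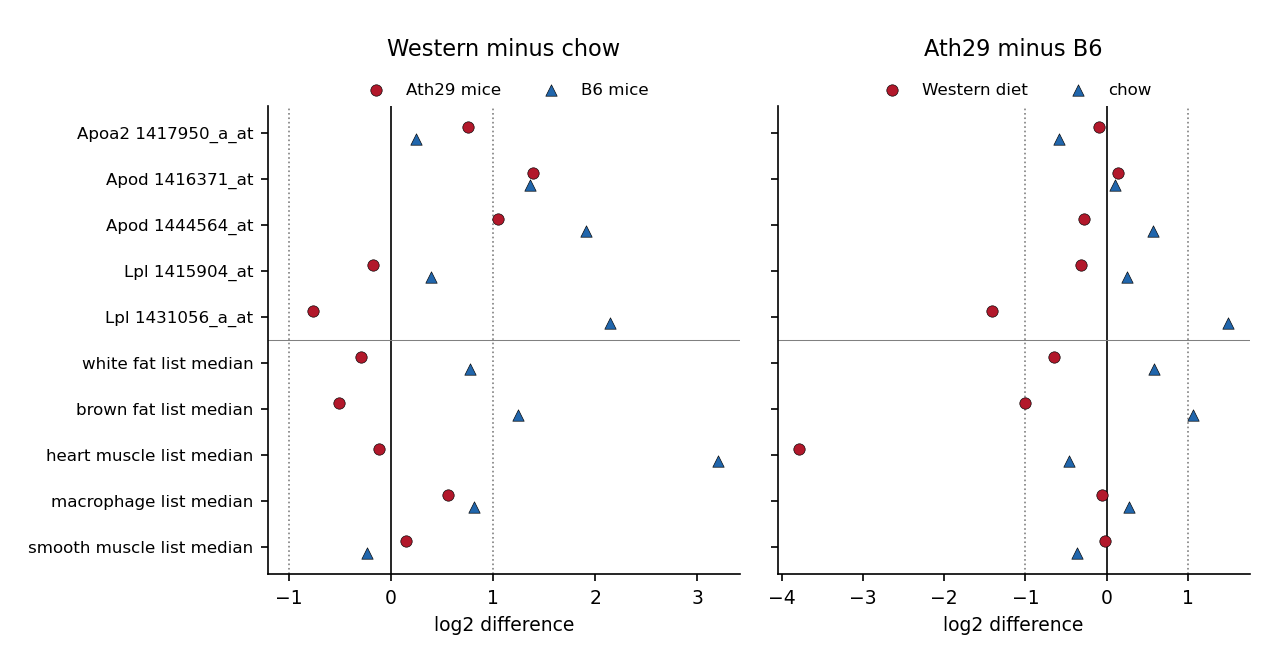
Western minus chow (left) and Ath29 minus B6 (right) log2 differences of the 5 probe sets above the filter, over the median differences of 5 cell type lists, with dotted lines at 2-fold. Both Apod probe sets lie above 1 for diet in each strain, and both Lpl probe sets lie on opposite sides of 0 in the 2 strains and on the 2 diets.

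Taken by list medians, fat signal moved with Lpl. The Western minus chow difference of white fat genes had a median of -0.29 in Ath29 mice and 0.77 in B6 mice, and that of brown fat genes -0.51 and 1.24. Between strains, Ath29 minus B6 was -0.65 on Western diet and 0.58 on chow for white fat, and -1.003 and 1.06 for brown fat. In Ath29 mice all 9 white fat and all 9 brown fat genes were below 0 for diet, and in B6 mice 8 and 9 of them were above 0. Adiponectin (Adipoq), a hormone of fat cells, read 3833 units in Ath29 Western, 4702 in Ath29 chow, 5358 in B6 Western and 3143 in B6 chow, the array order of Lpl. The bright white fat genes Plin4 and Fabp4 did not share that order. Plin4 read 3670, 3972, 3562 and 3734 units on those arrays, lowest in B6 Western, and Fabp4 read 9034, 9300, 9686 and 9060. Heart muscle, which also makes Lpl, was highest in B6 Western (median 3.21 for diet in B6 mice). How much of the Lpl differences goes with the fat or heart signal was not tested. Leaving out the B6 Western array, the differences for diet in Ath29 mice and for strain on chow remain. For Lpl these were -0.18 and 0.26 by the brighter probe set and -0.76 and 1.49 by the second. The fat medians for them were -0.29 and 0.58 for white fat and -0.51 and 1.06 for brown fat.

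Among the other genes that act with Lpl, 4 that shared its array order are given here, picked for that order among listed genes at least 2-fold different. Gpihbp1, which binds Lpl on the capillary surface, read 278 units in Ath29 Western, 499 in Ath29 chow, 664 in B6 Western and 203 in B6 chow. Angptl4, an inhibitor of Lpl, read 285, 429, 557 and 178 units on those arrays, and Cd36, which takes up the freed fatty acids, read 1386, 1985, 2741 and 930. The fat cell regulator Pparg, which is known to control Lpl, read 53.8, 96.0, 146 and 45.8 units. For diet, these 4 genes had differences of -0.84, -0.59, -0.52 and -0.84 in Ath29 mice and of 1.71, 1.65, 1.56 and 1.67 in B6 mice. Other listed genes had another order: the fatty acid binding proteins Fabp4 and Fabp5 were highest in B6 Western but differed in the order of the other arrays, and Furin, Pcsk6, Sel1l and Vldlr were not highest in B6 Western.

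**Figure D3:**
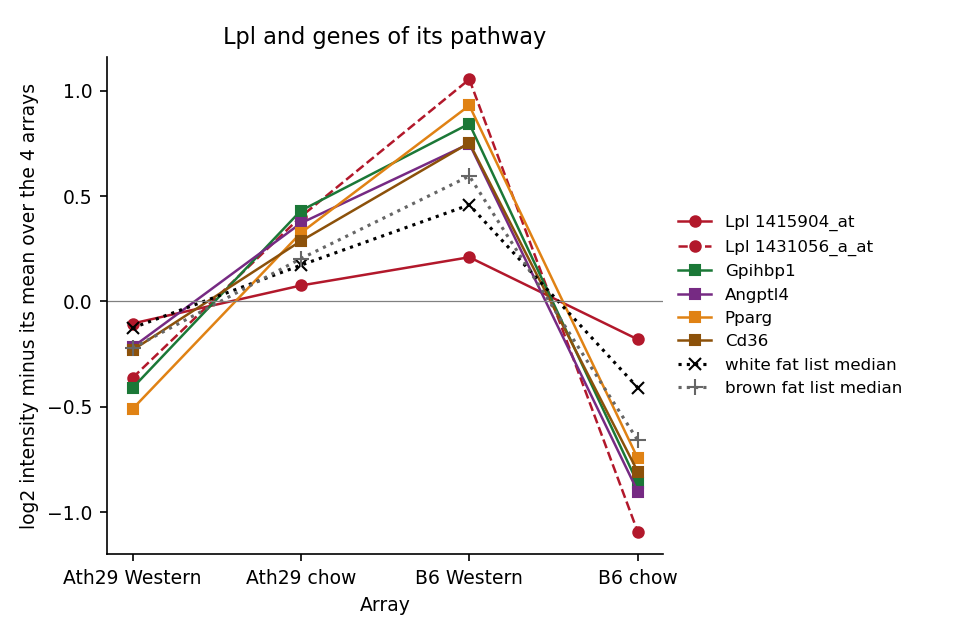
Log2 intensity of both Lpl probe sets, 4 genes of the Lpl pathway and the medians of the fat lists on the 4 arrays, each minus its own mean over the arrays. The second Lpl probe set, Gpihbp1, Angptl4, Pparg and Cd36 are highest in B6 Western and lowest in B6 chow, and the brighter Lpl probe set has the same order over a range of 0.39.

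The genes closest to Lpl in pattern, read by its brighter probe set, were Ciao3 at a distance of 0.011, Ndufa7, a subunit of respiratory complex I, at 0.016 and 4933433G19Rik at 0.017. They are not set apart by this, since 625 genes lay within 0.1 of that nearly flat profile.

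A wider list of 73 other lipoprotein and lipase genes had 43 above the filter, 22 below it and 8 with no single-gene probe set in the annotation used. In B6 mice 15 of the 43 were at least 2-fold higher on Western diet, where 4.11% of all genes were, and 0 lower. The list median was 0.67 against -0.06 over all genes. In Ath29 mice 2 were at least 2-fold higher, where 1.32% of all genes were, and 0 lower. The list median was 0.00 against 0.04 over all genes. At a 1.5-fold line the balance in Ath29 mice turned, with 3 higher and 6 lower, and the shares of all genes at that line were not counted. Between strains 5 were at least 2-fold lower in Ath29 mice on Western diet, where 2.03% of genes were, and 9 were at least 2-fold higher on chow, where 2.17% of genes were. The list medians were -0.33 on Western diet and 0.30 on chow. The 15 genes higher by diet in B6 mice and the 9 higher on chow both count Mttp and Lrp8. Their B6 chow and Ath29 Western values were below 27.5 units, so these counts rest in part on background values. The array order of Lpl was shared by 15 of the 43 genes, or 34.9%, with Mttp and Lrp8 among them, and by 7.54% of all genes. The list shares Lipe, Fabp4, Pparg and Pnpla2 with the white fat markers. The additive fit called 0 of the 43 at an adjusted p under 0.05 for either effect (limma). At an unadjusted p under 0.05 it had 4 of the 43 for diet and 1 for strain, where 294 and 304 of all 11715 genes were.

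The 2 genes of that list that were at least 2-fold higher on Western diet in both strains, as Apod was, were Saa3 and Abcg1. Saa3, an acute phase apolipoprotein made outside the liver, read 837 units in Ath29 Western, 335 in Ath29 chow, 613 in B6 Western and 75.9 in B6 chow. Abcg1, which exports cholesterol to HDL, read 361, 174, 401 and 94.9 units. Their Western minus chow differences were 1.32 and 1.06 in Ath29 mice, and 3.01 and 2.08 in B6 mice.

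The rest of the 15 genes were at least 2-fold higher on Western diet in B6 mice and short of 2-fold in Ath29 mice, a contrast that was not tested. By diet in B6 mice, the fatty acid sensor Ppara was at 2.33, the HDL enzyme Pon1 at 1.96, Dgat1, which makes triglyceride, at 1.49, Pnpla3 at 1.40, the HDL receptor Scarb1 at 1.19, the lipase Lipe at 1.17 and the mitochondrial protein Apoo at 1.10. Of these, Pnpla3 was at 0.25 in Ath29 mice and the others lay between -0.68 and -0.20. Mttp, which loads Apob with lipid, had 1.66 and the Apoe receptor Lrp8 had 1.26 in B6 mice, but each had B6 chow and Ath29 Western values below 27.5 units, so their differences are not exact. The lipoprotein receptor Vldlr, named after its values were seen, had a diet difference of -0.11 in Ath29 and 0.09 in B6 mice.

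**Figure D4:**
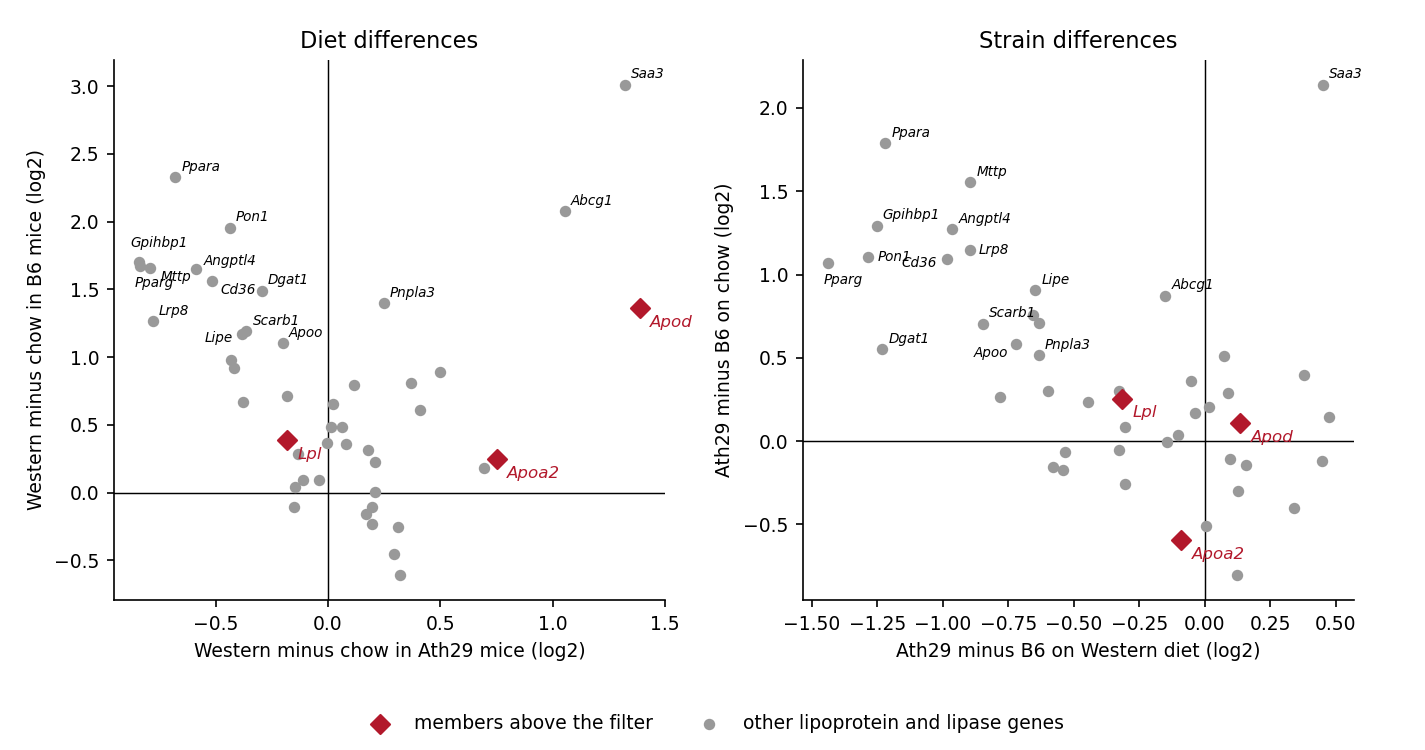
Each point is a gene above the filter. The left panel sets the Western minus chow log2 difference in B6 mice (vertical) against that in Ath29 mice (horizontal), and the right panel sets Ath29 minus B6 on chow (vertical) against that on Western diet (horizontal), for Lpl, Apod and Apoa2 (diamonds) and 43 other lipoprotein and lipase genes (circles), with names on those at least 2-fold different. Apod lies with Saa3 and Abcg1 at the upper right for diet, and Lpl lies on the side of Gpihbp1, Angptl4 and Pparg, closer to 0.

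Apoa2, the second protein of HDL by abundance in plasma, gave modest signal on every array. It read 88.3 units in Ath29 Western, 52.5 in Ath29 chow, 94.0 in B6 Western and 79.1 in B6 chow. Its only probe set is also of the _a_at class. The Ath29 chow array was the lowest and the other 3 lay within a narrow band. Western minus chow was 0.75 in Ath29 mice and 0.25 in B6 mice, and Ath29 minus B6 was -0.09 on Western diet and -0.59 on chow. In size, the difference of 0.75 was matched or exceeded by 5.47% of genes, and that of -0.59 by 16.4%. In the additive fit the diet effect was 0.50 ± 0.26 and the strain effect -0.34 ± 0.26 (SE, 4 arrays), each with an adjusted p of 0.9999 or more (limma). The closest patterns were those of Lmcd1, Ddah1 and Scn7a, at distances of 0.017, 0.026 and 0.032, and 48 genes lay within 0.1.

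The promoters of Apod and Apoa2 are shown because these are the members above the filter on every array for which the RefSeq table of build GRCm38.p6 gives a start site, with 2 starts for Apoa2. Each is the 250 bases before the start, read 5′ to 3′ on the strand of the gene, at chr16:31314809-31315058 (minus strand) for Apod and at chr1:171224804-171225053 and chr1:171221314-171221563 (plus strand) for Apoa2. Capitals mark matches on either strand to the CCAAT box, the TATA box motif TATAAA, the half-site of nuclear receptors AGGTCA and the site of the AP-1 factors TGACTCA, none of which overlap here.
Apod: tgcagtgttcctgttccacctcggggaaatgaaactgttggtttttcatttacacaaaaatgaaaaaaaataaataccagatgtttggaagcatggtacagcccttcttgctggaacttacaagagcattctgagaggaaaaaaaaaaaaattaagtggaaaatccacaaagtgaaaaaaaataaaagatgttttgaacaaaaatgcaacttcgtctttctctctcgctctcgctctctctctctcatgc
Apoa2, start 1: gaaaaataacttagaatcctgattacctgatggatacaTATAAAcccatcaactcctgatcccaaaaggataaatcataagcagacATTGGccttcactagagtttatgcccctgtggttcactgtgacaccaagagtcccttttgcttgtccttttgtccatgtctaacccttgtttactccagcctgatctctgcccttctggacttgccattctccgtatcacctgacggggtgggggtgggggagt
Apoa2, start 2: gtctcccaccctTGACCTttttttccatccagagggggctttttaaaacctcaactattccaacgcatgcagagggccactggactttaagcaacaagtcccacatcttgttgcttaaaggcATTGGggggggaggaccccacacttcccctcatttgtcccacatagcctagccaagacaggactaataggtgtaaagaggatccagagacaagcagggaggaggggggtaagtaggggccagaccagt
The Apod window held no match to any of these motifs and had 36.4% G and C bases, where the median of 32851 promoter windows was 52.4%. The Apoa2 windows held a TATAAA and a CCAAT match, and an AGGTCA and a CCAAT match. Of all windows, 33.8% held CCAAT, 14.0% AGGTCA, 12.4% TATAAA and 4.46% TGACTCA, so these matches are common and describe the letters only.

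The apolipoproteins that activate or restrain Lpl, Apoc2, Apoc1 and Apoc3, were below the filter, with 2 single values above 27.5 units. Apoc2 read 23.4 units in Ath29 Western, 20.9 in Ath29 chow, 21.6 in B6 Western and 5.21 in B6 chow. Apoc1 read 11.03, 26.3, 41.8 and 8.87 units on those arrays, and Apoc3 read 3.71, 11.3, 32.0 and 4.87. For Apoc1 and Apoc3 the B6 Western value alone exceeded 27.5 units, and it was the array with the highest fat and heart muscle signal, whose part in it was not tested. No fold is given for these genes, since every difference would rest on at least 1 background value.

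The structural proteins of HDL, chylomicrons and VLDL were also below the filter. Apoa1, the main protein of HDL, had 4 probe sets, and the highest of their 16 readings was 11.4 units, in B6 Western. Apob, the single large protein of each chylomicron or VLDL particle, read at most 16.8 units, in B6 chow. Apom, the HDL lipocalin that carries sphingosine 1-phosphate, read 15.8 units in Ath29 Western, 15.4 in Ath29 chow, 11.3 in B6 Western and 15.3 in B6 chow by its brighter probe set. Over the 7 genes below the filter, 12 probe sets gave 48 values, of which 2 exceeded 27.5 units and 29 lay at or under the floor. B6 chow had more of the floor values than any other array, with 10 of 12 probe sets at or under the floor, against 8 in Ath29 Western, 6 in Ath29 chow and 5 in B6 Western.

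Several of these genes sit in 2 clusters. Apoa1, Apoc3, Apoa4 and Apoa5 lie next to each other on chromosome 9, the chromosome of the Ath29 locus, and all 4 were below the filter, so no strain difference can be read from them. Apoa4 read at most 6.07 units and Apoa5 between 25.1 and 31.3. The genes on either side were measured. Sik3 read 815 units in Ath29 Western, 858 in Ath29 chow, 854 in B6 Western and 974 in B6 chow, and Zpr1 read 143, 126, 143 and 145. Ath29 minus B6 was -0.07 on Western diet and -0.18 on chow for Sik3, and 0.01 and -0.20 for Zpr1. A second Sik3 probe set, one that can match other transcripts, gave 0.14 on Western diet and 1.21 on chow, and a second Zpr1 probe set gave 0.33 and 0.35, so the probe sets of both genes differ in sign on chow. Whether the donor segment reaches this cluster was not tested.

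On chromosome 7, Apoe, Apoc1, Apoc4 and Apoc2 are neighbours in that order, and all 4 were below the filter. Apoc4 read between 16.8 and 23.6 units and Tomm40, next to Apoe, at most 4.46. Beyond them, Clptm1 read 463 units in Ath29 Western, 501 in Ath29 chow, 535 in B6 Western and 490 in B6 chow, and Nectin2 read 104, 101, 120 and 59.9. A second Clptm1 probe set read 97.4, 86.4, 71.9 and 78.2 units on those arrays. A second Nectin2 probe set read 75.7, 84.1, 88.8 and 87.2, without the low B6 chow value.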

How the data were processed

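Affymetrix mouse arrays were hybridised with biotin-labelled cRNA made from total RNA (8 ug), per the labels. The authors deposited 1 table of intensity values for 45101 probe sets, read as a linear scale from the values; how they were summarised and normalised is not stated there, so earlier scaling between arrays is unknown. Gene names came from the platform annotation, and 34741 of the 34945 with a single symbol were found in a RefSeq gene table (GRCm38.p6). In Python 3.11.15, values were taken to log2, shifted to a common median and raised to a floor at the 25th percentile (9.60). A gene is its probe set with the highest mean, kept above the median probe set (27.5), 11715 genes in all. The additive fit of strain and diet used limma 3.58.1, with 1 residual degree of freedom per gene, and was tested on simulated data first. The number of arrays limits the precision.

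The members and gene lists were chosen with earlier results of these data known. Named genes were all members, listed pathway genes at least 2-fold different in any comparison, up to 3 genes per cell type list, the 3 nearest patterns, and the neighbours of both apolipoprotein clusters. Alternatives were other scalings, filters, floors, probe set rules, fold thresholds and variance moderation.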

Additional observations from a re-analysis of the deposited data

Results flagged for a closer look

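With 1 array per group, values of the members above the filter, and of listed lipoprotein and lipase genes at least 2-fold different in some comparison, were looked at again where the diet difference had opposite signs in the 2 strains, or the strain difference had opposite signs on the 2 diets. None of these contrasts was tested. The quantity given is the Western minus chow log2 difference in Ath29 mice less that in B6 mice. For Lpl it was -0.57 by the brighter probe set and -2.91 by the second, and for the second Apod probe set it was -0.86. Around Lpl it was -2.55 for Gpihbp1, -2.24 for Angptl4, -2.08 for Cd36, -2.51 for Pparg and -3.01 for Ppara. Among enzymes of triglyceride and fat handling it was -1.79 for Dgat1, -1.55 for Lipe and -1.15 for Pnpla3. Among genes of particle assembly, uptake and HDL it was -2.45 for Mttp, -2.04 for Lrp8, -1.55 for Scarb1, -2.39 for Pon1, -1.03 for Abcg1 and -1.30 for Apoo. Those of Mttp and Lrp8 are not exact, since their B6 chow and Ath29 Western values were below 27.5 units. Another 20 listed genes had such opposite signs while short of 2-fold in every comparison. Of these, 12 were below 0 and 8 above it, from -1.42 for Dgat2 to 0.93 for Sorl1. The corresponding white fat and brown fat medians moved the same way and stand beside the Lpl values above. The share of all genes with such opposite signs was not counted. All 15 listed genes at least 2-fold different in a comparison were at least 2-fold higher on Western diet in B6 mice. That difference is subtracted in the quantity given, so the choice of these genes favours values below 0.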

How the results depend on the processing

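Of 156 alternative values for Lpl, Apod and Apoa2, 154 moved by less than 1.5-fold and stayed on their side of the 2-fold line, or of the adjusted p threshold in the additive fit. The exceptions were those of Lpl when all probe sets of a gene were averaged, 1.27 for diet in B6 mice and 0.88 for strain on chow. The Apod diet difference ran from 1.22 to 1.39 in Ath29 mice and from 1.35 to 1.64 in B6 mice, and its adjusted p in the additive fit (limma) was 0.409 at the lowest. Members at least 2-fold different for diet numbered 1 in Ath29 and 1 in B6 mice. With no filter they numbered 3 and 4, at 1.5-fold 2 in Ath29 mice, at 3-fold 0 in each, and with averaged probe sets 2 in B6 mice. For strain they numbered 0 on each diet, with no filter 2 on Western diet and 2 on chow, and at 1.5-fold 1 on chow. The added members without a filter were Apoe, Apoc1, Apoc2 and Apoc3, whose values were below 27.5 units but for Apoc1 and Apoc3 in B6 Western. Of the other lipoprotein and lipase genes, 2 differed for diet in Ath29 mice, with 1 under quantile normalization, averaged probe sets or without cross-matching probe sets (those named _s_at, _x_at or _a_at, which leaves no Apoa2 value and drops the second Lpl probe set), 9 at 1.5-fold (3 higher and 6 lower) and 0 at 3-fold. For diet in B6 mice 15 differed, with 9 under the stricter filter (which tests fewer genes), 25 at 1.5-fold and 8 at 3-fold. For strain on Western diet 5 differed, with 3, 17 and 0 under those settings, and on chow 9, with 5, 15 and 2. The shares of all genes under these other settings were not counted. The counts thus show how members and list moved, not whether they stood out from all genes. The additive fit called 0 genes for diet, with 2 when cross-matching probe sets were left out. For strain it called 0, with 2 under the stricter filter, 4 with trended, robust moderation, and 1 each with no floor beyond 1, averaged probe sets or cross-matching ones left out. No member was among them. The cause of these shifts was not tested. Without the B6 Western array the additive model has no residual degrees of freedom and was not fitted. No paired analysis was possible because each group has 1 array and the labels carry no replicate numbers.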
